A study of Mus musculus with 18 samples.

Results

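Dppa2, Dppa4, Dppa5a, Utf1 and Eras are 5 genes of the early pluripotent embryo, and they were followed here in single cells of the gastrulating mouse embryo at embryonic stages E6.75 and E7.5. They are 5 of the 22997 nuclear genes in the deposited tables, each taken by its own row in every table. They were chosen for their lower level at E7.5, so that stage difference is given below as a description with no test. Their levels in cells with and without a transcript of the gastrulation genes T, Mesp1, Foxa2 and Sox2 were tested. The members do not define these sides, but the comparisons too were chosen with earlier results of these data known. The adjusted p values are therefore not independent of that choice. All cells came from whole embryos of wild-type C57BL/6 mice, and no further allele or treatment is named. The E6.75 group held 6 libraries of 96 hand-picked cells, from embryos whose extraembryonic part had been cut off and which were dissociated singly, prepared with CEL-Seq2. The E7.5 group held 12 libraries of 96 cells sorted by flow cytometry, from embryos trimmed below the chorion so that extraembryonic mesoderm was kept, with 1 or 2 litters pooled, prepared with mCEL-Seq2. Both methods mark polyadenylated RNA with barcodes for the cell and for the molecule (UMIs), so amplification does not add counts. Stage, way of collecting and protocol changed together and cannot be told apart. The labels do not say which embryos a library holds, so the spread between libraries may be partly technical.

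Dppa2 and Dppa4 encode SAP-domain chromatin proteins that work as partners, bind gene promoters carrying both active and repressive histone marks, and keep germline and other developmental genes free of DNA methylation. Dppa5a encodes a small RNA-binding protein with a KH domain, and Utf1 encodes a chromatin-associated cofactor of pluripotent and germ cells. Eras encodes a Ras-family GTPase that is active without the usual growth factor input and signals through PI3K and AKT, a route known for supporting the growth of embryonic stem cells. All 5 are known as genes of pluripotent cells, of which the epiblast is the embryonic source. During gastrulation epiblast cells enter the primitive streak, where T is expressed, and leave it as mesoderm, which first expresses Mesp1, or as definitive endoderm and axial mesoderm, which express Foxa2. Sox2 stays on in epiblast and in the ectoderm that forms from it.

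In the GENCODE annotation of GRCm38, matched by gene symbol, Dppa4 lies on chromosome 16 at 48283733 to 48294237 and Dppa2 follows it at 48303908 to 48319723, both on the plus strand. The 9670 bases between them hold 0 annotated genes. Dppa5a lies on chromosome 9 at 78367052 to 78368177 on the minus strand, with 3 exons. Utf1 lies on chromosome 7 at 139943789 to 139945112 on the plus strand, with 2 exons. Eras lies on chromosome X at 7924276 to 7928607 on the minus strand, with 2 exons, and Pcsk1n, a gene of the plus strand, overlaps it. The genome build and annotation behind the counts are not given in the sources used here.

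The bases just before Utf1 and Eras are shown because these are the 2 members with an entry in the RefSeq promoter table used here. Both were matched by symbol, on GRCm38.p6. The Utf1 stretch is chr7:139943606-139943788 on the plus strand and stops before the first annotated exon. The Eras stretch is chrX:7928608-7928857 on the minus strand. Capitals mark the GC box GGGCGG on either strand, the core that SP-family factors recognise.
Utf1: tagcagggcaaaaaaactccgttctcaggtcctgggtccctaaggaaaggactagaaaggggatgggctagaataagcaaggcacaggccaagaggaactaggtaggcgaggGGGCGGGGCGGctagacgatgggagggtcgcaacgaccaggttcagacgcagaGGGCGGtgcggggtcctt
Eras: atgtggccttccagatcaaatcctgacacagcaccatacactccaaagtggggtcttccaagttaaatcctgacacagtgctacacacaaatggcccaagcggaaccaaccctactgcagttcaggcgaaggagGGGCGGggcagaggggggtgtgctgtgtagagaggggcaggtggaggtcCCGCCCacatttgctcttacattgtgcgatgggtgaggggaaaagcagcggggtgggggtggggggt
Over the 250-base windows, the GC box occurred 4 times at Utf1 and 2 times at Eras, overlapping matches counted. The Utf1 window ends at 139943855 and so runs past the start of the gene, while the Eras window lies wholly before its gene. The Utf1 counts of matches and CpG pairs therefore cover bases that are not printed, and the 2 windows are not alike in position. Of 32851 RefSeq windows of the same length, 32.7% held at least 1. The SOX core ATTGT occurred 0 times at Utf1 and 1 time at Eras, against 27.7% of windows. The octamer ATGCAAAT (1.6% of windows), the E-box CACGTG (6.02%) and the TATA box TATAAA (12.4%) had no match in either window, both strands searched. Utf1 had 14 CpG pairs in its window and Eras 6, and the median window had 6. These are letters in a window and not measured binding.

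Cells with at least 2000 nuclear transcripts were kept, which were 543 of 576 used barcodes at E6.75 and 429 of 1152 at E7.5. E7.5 replicate 5 had 0 kept cells, which left 6 and 11 libraries. Kept transcripts per library ran from 2921862 to 5493791 in the earlier group and from 488908 to 2618539 in the later, with median cell depths of 22331 to 54686 and 18982 to 57140. Mitochondrial genes took 13.7% to 18.6% and 8.99% to 14.3% of transcripts. The 7 epiblast markers together stood at 2020 to 2429.5 transcripts per 1000000 (CPM) at E6.75 and at 516 to 1344 at E7.5. The 6 mesoderm markers stood at 57.2 to 294 and 232 to 991 CPM, the 6 markers of anterior and neural ectoderm at 18.8 to 48.1 and 162 to 394, and the 6 definitive endoderm and axial markers at 12.3 to 109 and 4.45 to 206. The 9 visceral endoderm markers stood at 111 to 846 and 2.05 to 358 CPM, the 6 extraembryonic ectoderm markers at 50.1 to 114 and 38.9 to 149.8, the 6 haemato-endothelial markers at 10.5 to 66.0 and 25.4 to 377, and the 7 primordial germ cell markers at 20.1 to 42.8 and 12.3 to 47.5. All listed markers had rows in the tables. The make-up of the libraries thus moved with stage, and its part in the stage differences over whole libraries was not tested. All barcodes of kept cells recur across libraries, as plate barcodes do, and the closest pair of libraries differed by a chi-square of 2.11 per degree of freedom, so no library was a second copy of another.

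Utf1 was lower at E7.5 in every library. Its level per library, as CPM of all kept cells, was lowest 443, median 534 and highest 859 at E6.75, and lowest 20.9, median 84.6 and highest 173 at E7.5. Every E7.5 library was below every E6.75 library. The means were 580 ± 161 (SD, n = 6) and 95.4 ± 52.7 CPM (SD, n = 11), a 6.07-fold difference. Dppa5a ran from 45.2 to 80.5 CPM with a median of 55.5 at E6.75 and from 2.68 to 20.5 with a median of 6.64 at E7.5. Its groups did not overlap either, and its means of 60.5 ± 13.7 and 7.88 ± 4.84 CPM differed 7.67-fold.

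Dppa4 stood at 22.3 to 71.2 CPM, median 31.5, at E6.75 and at 0 to 16.3, median 0.949, at E7.5, where 4 of 11 libraries had no transcript of it. These ranges were also apart, with means of 41.2 ± 20.8 and 3.99 ± 6.04 CPM. Dppa2, its partner and neighbour, ran from 2.72 to 22.5 CPM with a median of 12.5 at E6.75 and from 0 to 7.42 with a median of 0 at E7.5. Its ranges overlapped, because 1 E7.5 library reached 7.42, while 6 of 11 E7.5 libraries had none. The means were 12.6 ± 7.08 and 1.23 ± 2.20 CPM, and in the E7.5 libraries at 0 that count allows 1.77 to 6.14 CPM. The means of each gene were 10.3-fold apart. Without E7.5 replicate 10, the library with the highest CPM of both, the folds were 20.7 for Dppa2 and 14.9 for Dppa4, so the size of the Dppa2 difference rests on that library.

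Eras did not share this loss to the same degree. It ran from 56.9 to 73.0 CPM with a median of 58.8 at E6.75 and from 10.2 to 68.6 with a median of 30.7 at E7.5. The stages overlapped, and the means of 61.7 ± 6.43 and 39.4 ± 19.8 CPM differed 1.57-fold. The 3 members whose ranges did not overlap can be set beside 4.23% of all 9998 genes tested, in which every E7.5 library was below every E6.75 library, but as the members were chosen on this contrast nothing is read from that count. Across all genes, edgeR's quasi-likelihood test called 3879 of 9998 (38.8%) between the stages.

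**Figure D1:**
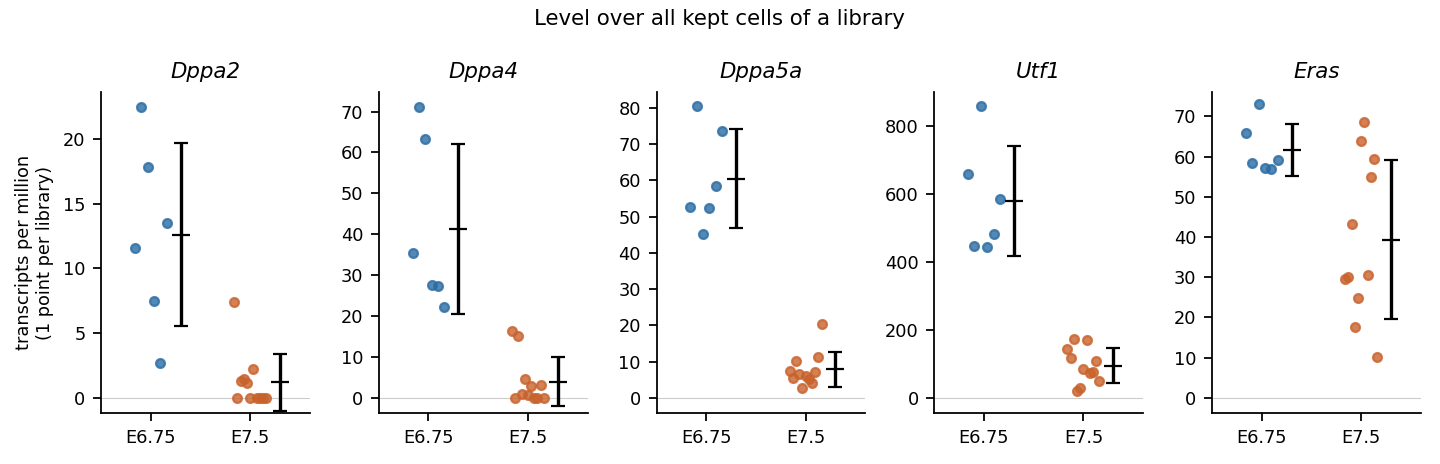
Level of each gene per library, in CPM of all kept cells (y axis, 1 scale per gene), at E6.75 (6 libraries) and E7.5 (11 libraries), with the mean and SD beside the points. Utf1, Dppa4 and Dppa5a are apart between stages, Dppa2 overlaps in 1 E7.5 library at 7.42, and Eras spreads from 10.2 to 68.6 at E7.5.

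Single cells at E7.5 were less often positive for each gene and, for Utf1 and Dppa5a, held fewer transcripts when positive. At E6.75 Utf1 was found in 524 of 543 cells, with a median of 15 transcripts in those cells, 10 or more in 315 of them, and up to 157. At E7.5 it was found in 171 of 429 cells, with a median of 3 and up to 51. Dppa5a was found in 400 cells at E6.75, with a median of 3, and in 66 at E7.5, of which 80.3% held exactly 1 transcript. Eras was found in 364 and 161 cells, and its median in those cells was 3 at both stages. Dppa4 was found in 248 cells at E6.75 and 14 at E7.5, and Dppa2 in 122 and 8.

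Taking the 5 genes together, 69 of 543 E6.75 cells (12.7%) held a transcript of all 5, and 9 held none. At E7.5, 0 of 429 cells held all 5, 5 cells held 4, and 181 cells (42.2%) held none. Detection depends on depth, so the share of cells with a transcript was also computed for cells thinned to 2000 observed UMIs each. The thinned share of Utf1 was 59.7% ± 10.2 over 6 libraries at E6.75 (SD) and 13.3% ± 7.16 over 11 at E7.5 (SD), against 96.5% and 41.9% unthinned. For Dppa5a it was 11.7% ± 2.68 and 1.70% ± 0.989, against 73.3% and 18.6% unthinned. For Dppa4 it was 7.09% ± 3.57 and 0.619% ± 0.745, against 45.9% and 3.48%. For Dppa2 it was 2.14% ± 1.21 and 0.149% ± 0.228, against 22.6% and 1.52%. For Eras it was 11.2% ± 1.62 and 7.0% ± 3.59, against 67.0% and 37.5%. At this depth the Dppa2 share is close to what a few single molecules give, and no order among the rarer genes is read from it.

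**Figure D2:**
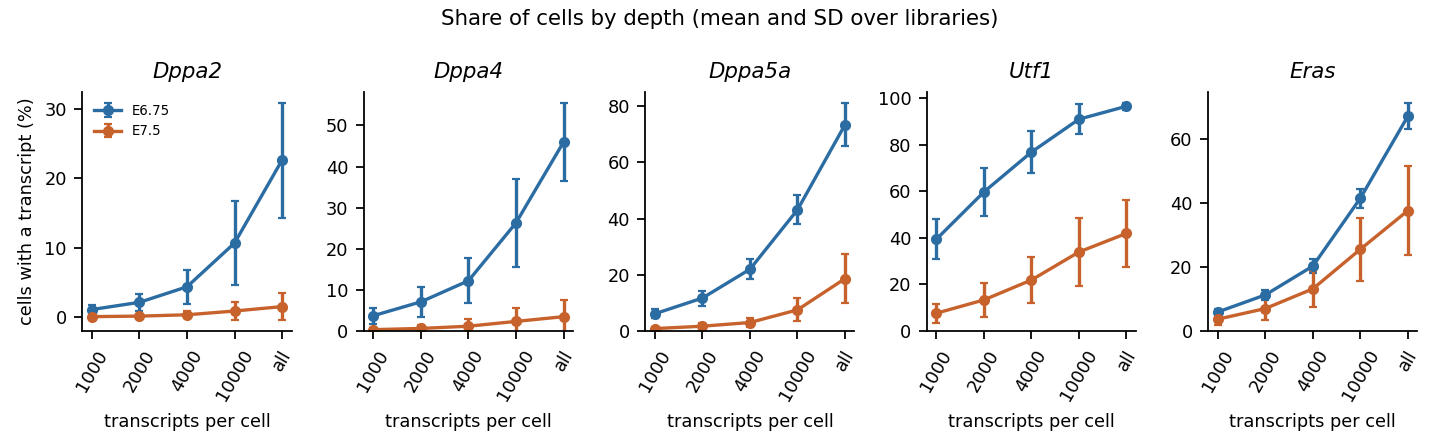
Share of cells with at least 1 transcript (y axis, percent, mean and SD over 6 E6.75 and 11 E7.5 libraries) against the number of transcripts each cell was thinned to (x axis, not to scale, with all transcripts at the right). Shares rise with depth at both stages, and the E7.5 mean lies below the E6.75 mean at every depth for each gene.

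Cells near the least depth of 2000 transcripts were also measured. In the 34 E6.75 cells just inside it, with 2000 to 4000 transcripts, Utf1 was at 683 CPM, and in the 27 just outside, with 1000 to 2000, at 573 CPM. In the 39 E7.5 cells just inside it was at 68.2 CPM, and in the 64 just outside at 149 CPM, which are 8 and 14 transcripts. Dppa2 had no transcript in any of these cells.

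The last traces of Dppa2 and Dppa4 at E7.5 sat in 18 cells. They were 4 cells with Sox2 and no T, 4 with Sox2 and T, 4 with T alone, 2 with Foxa2, 1 with Mesp1, 2 with none of the 4 genes and 1 extraembryonic ectoderm cell. Only 4 cells held both genes, 3 of them with Sox2 and T. The richest, in replicate 10, held 11 transcripts of Dppa4, 5 of Dppa2, 25 of Utf1 and 28 of Sox2. Of all 44 Dppa4 transcripts at E7.5, 90.9% lay in the 10 cells that held most. None of the 18 cells held Dppa3, a marker of primordial germ cells. Most of them held 1 or 2 of the 7 germ cell markers, and none held more than 2. The share of other E7.5 cells with these markers was not computed, so no cell type is read from them.

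To follow the genes by lineage, cells were placed in 6 classes that do not overlap, by transcripts of the 4 markers: Sox2 only, Sox2 and T, T only, Mesp1 without Foxa2, Foxa2 without Mesp1, and none. A class was measured in a library with at least 3 of its cells. Because a shallow cell can miss a marker, the class with none is the shallowest at E6.75, with a median of 6382 transcripts per cell. Visceral endoderm cells and extraembryonic ectoderm cells were set apart by their own markers. Class values are descriptions with no test. The share of all genes whose libraries do not overlap between stages was not computed within classes. As the members were chosen on the stage difference, nothing is read from such ranges.

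At E6.75 Dppa5a was nearly level across the classes. It stood at 60.5 ± 13.6 CPM in cells with Sox2 only (215 cells, 6 libraries), 65.7 ± 14.7 with Sox2 and T, 60.1 ± 9.07 with Mesp1 and 49.6 ± 17.7 with Foxa2. In the 41 cells set apart by visceral endoderm markers it was 69.5 ± 24.1 CPM, and pooled over cells their level was 117% of that in Sox2-only cells. The same share was 66.2% for Eras, 59.0% for Dppa2 and 24.8% for Utf1. Doublets and transcripts carried over from other cells were not tested for. At E7.5 it was low in every class, at 3.31% to 20.2% of the E6.75 mean of the same class, and the ranges of libraries did not overlap in any of the 6. The annotation holds the gene copies Dppa5b and Dppa5c, which have no rows in the tables, so reads shared with these copies may be counted under Dppa5a.

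Dppa4 was uneven already at E6.75. It stood at 49.9 ± 25.1 CPM with Sox2 only, 32.3 ± 19.8 with Sox2 and T, 35.5 ± 17.2 with Foxa2 and 8.17 ± 6.02 with Mesp1 (29 cells, 3 libraries). In visceral endoderm cells 3 transcripts were found in 3 of 41 cells, a pooled level of 5.29% of that in Sox2-only cells, at median depths of 23368 and 47144. At E7.5 no transcript was found in any of 125 cells with Mesp1, where 3 counts would be 0.613 CPM and the exact Clopper-Pearson upper bound on the share of cells with a detected transcript is 2.91%, which covers counting error only, takes the cells of all libraries together and sets no limit on cells expressing the gene. Cells with Sox2 and T held 16.6 ± 27.2 CPM in 8 libraries, a spread larger than the mean. The class with none stood at 20.1 ± 56.9 CPM, with replicate 12 at 161. At E6.75 Dppa2 had the same direction with fewer counts, from 15.2 ± 8.15 CPM with Sox2 only to 1.97 with Mesp1. At E7.5 it had 0 transcripts in the Foxa2 class and in the class with none, and 8 transcripts in all with Sox2 and T. Its E7.5 mean was 48.6% of the E6.75 mean with Sox2 and T, and 86.0% with T only, from 4 E7.5 transcripts. For Dppa4 these shares were 51.5% and 6.56%.

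Utf1 had the E6.75 order of Dppa4 over the Sox2-only, Foxa2, Sox2 and T, and Mesp1 classes, at higher counts. At E6.75 it stood at 750 ± 156 CPM with Sox2 only, 521 ± 103 with Foxa2, 452 ± 138 with Sox2 and T, 321 ± 201 with Mesp1 and 248 ± 24.2 with T only (2 libraries), and the shallow class with none of the markers was at 585 ± 106. Visceral endoderm cells held it too, at 159 ± 65.4 CPM and in 40 of 41 cells. At E7.5 the order had Sox2 only at the top, at 282 ± 98.9 CPM (70 cells, 6 libraries), and Sox2 and T next, at 168 ± 162. Foxa2, T-only and Mesp1 cells stood at 58.2 ± 60.4, 37.7 ± 49.9 and 35.2 ± 28.7 CPM, which do not differ beyond their spread. Within Sox2-only cells the E7.5 mean was 37.7% of the E6.75 mean and the libraries did not overlap. Within Mesp1 and Foxa2 cells it was 11% and 11.2%.

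Eras did not follow the others, and a lower mean at E7.5 was seen in some classes only. Its libraries overlapped between stages in every class, including those with the lower means. In Sox2-only cells it stood at 70.1 ± 6.56 CPM at E6.75 and 80.6 ± 26.3 at E7.5, 115% of the earlier level, and the libraries overlapped. In Foxa2 cells it stood at 72.6 ± 17.4 and 69.5 ± 23.0 CPM, or 95.7% of the earlier level, and with Sox2 and T at 51.2 ± 15.5 and 53.6 ± 22.1 CPM, or 105%. The low E7.5 levels lay in T-only cells, at 14.9 ± 15.7 CPM (67 cells), in Mesp1 cells, at 11.9 ± 9.0 (125 cells), and in cells with none of the 4 markers, at 14.9 ± 15.9. At E6.75 T-only cells stood at 51.7 ± 39.8 CPM (17 cells, 2 libraries) and cells with none at 66.5 ± 25.6. Mesp1 cells were already at 21.9 ± 16.3 CPM at E6.75, so their stages do not differ beyond their spread. Utf1 and Eras thus differed most in Foxa2 cells, where the E7.5 share of the E6.75 level was 11.2% for Utf1 and 95.7% for Eras.

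**Figure D3:**
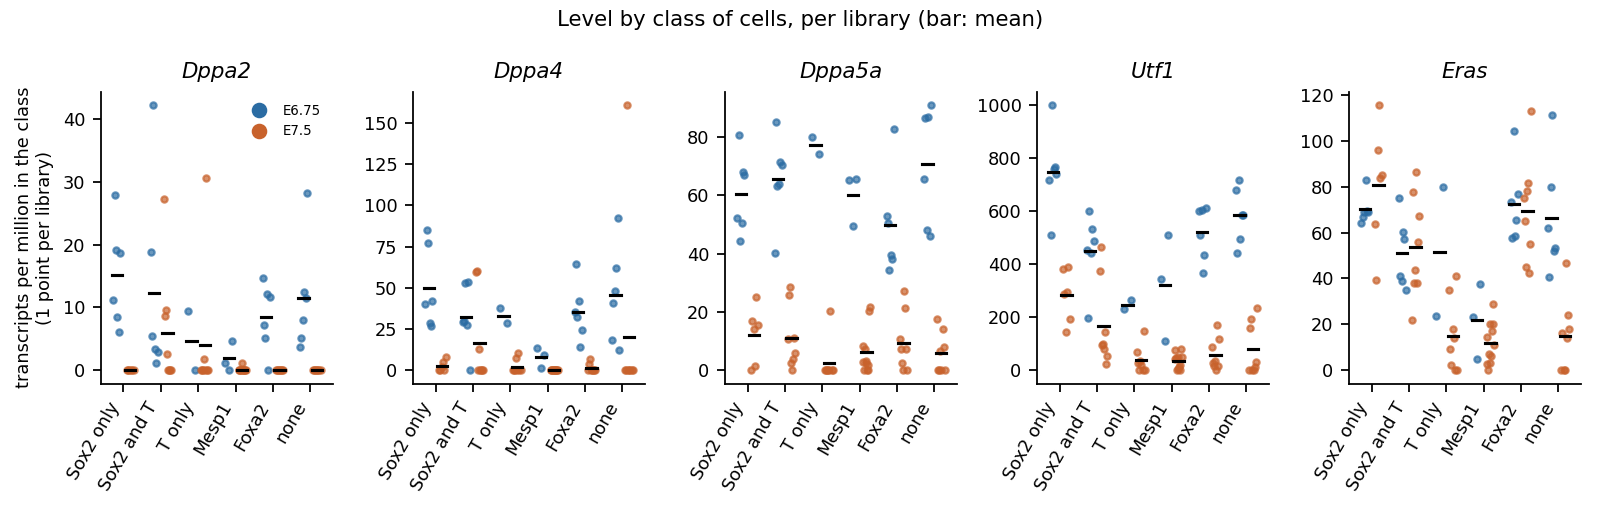
Level of each gene by class of cells (x axis), in CPM of the class (y axis, 1 scale per gene), with 1 point per library holding at least 3 cells of the class and a bar at the mean. Dppa5a is level across E6.75 classes and low across E7.5 classes, while Eras at E7.5 stays at 80.6 with Sox2 only and 69.5 with Foxa2 but at 11.9 with Mesp1.

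Reads of Pcsk1n could enter the Eras count or the reverse if strand was not used in counting, and the sources used here do not say whether it was. Pcsk1n stood at 14.5 ± 3.85 CPM at E6.75 and 17.5 ± 8.32 at E7.5. Of the 196 E6.75 cells with Pcsk1n, 161 held Eras, and of the 125 at E7.5, 88 did. Among all kept cells, 364 of 543 held Eras at E6.75 and 161 of 429 at E7.5. Pcsk1n was tested in 5 of the 8 comparisons below and called in none (edgeR adjusted p from 0.133 to 0.996). At E6.75 its log2 differences were −0.30 with T, −1.29 with Mesp1, 0.14 with Foxa2 and −0.25 with Sox2. At E7.5 it was tested with Foxa2 only (0.31), so the Eras calls with T, Mesp1 and Sox2 at E7.5 have no such check. Its interaction with stage was 1.73 for Sox2 (SE 0.49, edgeR adjusted p = 0.0571), −0.35 for T, −0.20 for Mesp1 and 0.12 for Foxa2. Its part in the Eras counts was not tested.

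Cells with T had less Utf1 than cells without at both stages, less Dppa4 at E6.75 and less Eras at E7.5, while the Dppa5a means at E6.75 were 0.01 apart on the log2 scale. For these comparisons 41 visceral endoderm cells and 1 extraembryonic ectoderm cell at E6.75, and 2 and 1 at E7.5, were left out, transcripts were summed per library and side, and the library was a block. At E6.75, Utf1 ran from 213 to 565 CPM with a median of 398 in the 153 cells with T, and from 509 to 954 with a median of 711 in the 348 cells without. It was lower with T in 6 of 6 libraries, by 0.91 on the log2 scale (−0.91, SE 0.08, edgeR adjusted p = 3.02e-08). Dppa4 ran from 13.5 to 33.9 CPM, median 26.6, with T and from 31.4 to 81.5, median 35.4, without. It too was lower in 6 of 6 libraries (log2 −0.74, SE 0.16, edgeR adjusted p = 0.00496). Of all 9747 genes tested, 1.39% were called lower, against these 2 of 5 members. Eras had means of 54.4 ± 15.9 and 68.4 ± 5.17 CPM, was lower in 5 of 6 libraries and did not pass (log2 −0.40, SE 0.12, edgeR adjusted p = 0.0738). Dppa5a had 60.5 ± 14 CPM with T and 60.3 ± 14 without (log2 −0.01, SE 0.10, edgeR adjusted p = 0.989), and Dppa2 had 9.77 ± 7.71 and 14.2 ± 7.38 (log2 −0.70, SE 0.31, edgeR adjusted p = 0.341). Cells with T were deeper, with library medians of 37750 to 72495 transcripts against 14191 to 61555. Sides were also set on cells thinned to 2000 transcripts, with levels still summed from all transcripts of a cell. A cell with few marker transcripts can then fall on the side without, so this setting does not separate depth from marker level. The Utf1 difference was then −2.56, Dppa4 −2.29, Eras −1.20 and Dppa2 −3.24, with all 4 called (edgeR adjusted p from 2.87e-17 to 0.0101). The Dppa4 call was lost without the library block (adjusted p = 0.163, the highest of 15 alternatives, which began at 9.88e-06), and Eras gained one without replicate 1_10 (log2 −0.53, adjusted p = 0.00719), in libraries of prefix 2 (−0.49, 0.0307) and with no filter on low counts (−0.42, 0.00966), in 15 alternatives from 0.00719 to 0.531.

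At E7.5 the 281 cells with T had Utf1 at 3.89 to 178 CPM, median 55.0, and the 145 cells without at 42.7 to 275, median 123. It fell by 1.45 on the log2 scale with T and was lower in 10 of 11 libraries (SE 0.29, edgeR adjusted p = 0.00408). Eras ran from 10.5 to 53.9 CPM, median 27.2, with T and from 0 to 101, median 58.3, without. It was lower in 9 of 11 libraries (log2 −0.97, SE 0.21, edgeR adjusted p = 0.00737), and 0.714% of the 6023 genes tested were called lower. Dppa2, Dppa4 and Dppa5a had too few transcripts to pass the filter on low counts, with 13, 32 and 54 transcripts with T and 2, 11 and 33 without. DESeq2 and the fit without a block ended the Utf1 call (adjusted p = 0.0714 and 0.0578, in 19 alternatives from 2.36e-21 to 0.0714), and thinned sides ended that of Eras (adjusted p = 0.154, in 19 alternatives from 0.000104 to 0.154). Depth again differed, at 22548 to 82676 transcripts with T and 4035 to 52555 without. The test of the interaction of T and stage called none of the 4 members that reached it (all but Dppa2; edgeR adjusted p from 0.731 to 0.932) and 36 of 8265 genes (0.436%).

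Cells with Mesp1 had less Utf1 and Eras than cells without at both stages, and less Dppa4 at E6.75. At E6.75 only 3 libraries had 3 or more cells on each side, with 50 cells with Mesp1 and 202 without. Dppa4 stood at 14.9, 7.71 and 10.2 CPM with Mesp1 in replicates 2_13, 2_14 and 2_9, against 35.2, 32.6 and 27.4 without. Each of these libraries had less Dppa4 with Mesp1 (log2 −1.50, SE 0.28, edgeR adjusted p = 0.00617). Eras stood at 31.1, 14.3 and 54.8 CPM against 68.8, 65.7 and 64.0 (log2 −1.13, SE 0.24, edgeR adjusted p = 0.0192). Utf1 stood at 314, 110 and 611 against 524, 583 and 633, lower in each library although replicate 2_9 was close (log2 −0.96, SE 0.23, edgeR adjusted p = 0.0491). These are 3 of 5 members called lower, and 0.225% of 9776 genes were. Dppa5a, at 57.9, 44.1 and 77.2 against 48.5, 61.1 and 73.7 CPM, showed no difference past the test (log2 −0.02, SE 0.17, edgeR adjusted p = 0.986), nor did Dppa2 (log2 −1.33, SE 0.51, edgeR adjusted p = 0.354). Without replicate 2_14 the calls of Utf1 (log2 −0.42, adjusted p = 0.0766) and Eras (log2 −0.79, adjusted p = 0.0944) were lost, over 12 alternatives from 4.49e-39 to 1.0 and from 1.47e-08 to 0.212. They were also lost with no library block (adjusted p = 0.612 and 0.141) and with no cells left out (0.238 and 0.0786), and that of Utf1 in cells of at least 5000 transcripts (0.0605). With thinned sides the differences were −2.99 for Utf1, −3.29 for Eras and −2.60 for Dppa4, all called (edgeR adjusted p up to 0.00139). DESeq2 called none of the members here (Dppa4 adjusted p = 0.239, Eras 0.212, Utf1 1.0), and Dppa4 kept its call in the other 11 of 12 alternatives, the lowest at 1.56e-05. All 3 libraries are of prefix 2, so the alternative with libraries of prefix 2 only repeats the main fit and had to keep each call.

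At E7.5 all 11 libraries entered, with 137 cells with Mesp1 and 289 without. Utf1 ran from 1.98 to 81.4 CPM, median 33, with Mesp1 and from 35.2 to 254, median 125, without. It was lower in 10 of 11 libraries (log2 −2.13, SE 0.26, edgeR adjusted p = 2.38e-06). Eras ran from 0 to 29.7, median 12.8, and from 0 to 85.1, median 49.6. It too was lower in 10 of 11 (log2 −1.94, SE 0.23, edgeR adjusted p = 1.95e-06), and 3.24% of 6138 genes were called lower. Dppa4 had 0 transcripts with Mesp1 and 43 without, Dppa2 1 and 14, and Dppa5a 33 and 54, all under the filter. Both calls held in each alternative that could be computed, 19 for Utf1 and 18 for Eras, which did not pass the filter without replicate 7. With thinned sides they were −3.84 and −3.35 on the log2 scale. The interaction with stage called none of the 4 members that reached it (all but Dppa2; edgeR adjusted p from 0.228 to 1.0) and 37 of 8192 genes (0.452%). Median depths were 27740 to 72743 with Mesp1 and 4058 to 58080 without, and 48801 to 72651 and 19075 to 61110 at E6.75.

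In Foxa2 cells at E7.5, Eras and Utf1 went in opposite directions. The 58 cells with Foxa2, in 9 libraries, had Eras at 33 to 113 CPM, median 58.1, and the 330 cells without at 9.52 to 67.9, median 34.0. Eras was higher with Foxa2 in 8 of 9 libraries (log2 0.91, SE 0.23, edgeR adjusted p = 0.0297), as were 1.81% of 6458 genes called higher. Utf1 ran from 0 to 170 CPM, median 23.6, with Foxa2 and from 20.2 to 234, median 100, without. It was lower in 6 of 9 libraries (log2 −1.26, SE 0.32, edgeR adjusted p = 0.0249), and 0.681% of genes were called lower. Both calls rested on single libraries. That of Utf1 was lost without any one of replicates 2, 3, 4, 7, 11 and 12 (log2 −1.01 to −1.26, adjusted p from 0.0502 to 0.165), with DESeq2 (0.117), with no library block (0.278) and with thinned sides (0.167), and was kept in 8 of 17 alternatives, with adjusted p from 1.11e-08 to 0.278. That of Eras was lost without replicate 1 (log2 0.69, adjusted p = 0.142), 2 (0.97, 0.0551), 8 (0.81, 0.0836) or 11 (0.83, 0.0778), with no library block (0.516) and with thinned sides (0.169), and was kept in 11 of 17, with adjusted p from 0.0215 to 0.516. Depth was 7181 to 88741 with Foxa2 and 17412 to 53676 without.

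At E6.75, in 101 cells with Foxa2 and 400 without, Utf1 was the 1 member called. It had 507 ± 129 CPM with and 634 ± 166 without, lower in 4 of 6 libraries (log2 −0.40, SE 0.08, edgeR adjusted p = 0.0277), with 0.124% of 9679 genes called lower. This call was lost without replicate 1_10 (log2 −0.43, adjusted p = 0.0547), 2_12 (−0.35, 0.214), 2_13 (−0.31, 0.282) or 2_14 (−0.36, 0.223), with DESeq2 (0.147) and with no library block (1.0), in 15 alternatives from 2.86e-09 to 1.0. Eras had 70.0 ± 19.2 and 60.6 ± 4.33 CPM (log2 0.16, SE 0.13, edgeR adjusted p = 0.935). Dppa5a had 50.1 ± 17.9 and 62.4 ± 12.2 (log2 −0.34, adjusted p = 0.621), Dppa4 33.8 ± 17.1 and 44.3 ± 22.4 (log2 −0.38, adjusted p = 0.755), and Dppa2 8.09 ± 4.83 and 13.3 ± 7.98 (log2 −0.42, adjusted p = 0.935). With thinned sides Utf1 was at log2 −1.42 (adjusted p = 2.86e-09) and Dppa4 passed, at −2.20 (adjusted p = 0.0135, in 15 alternatives up to 1.0). The interaction of Foxa2 and stage called none of the 4 members that reached it (all but Dppa2), with Utf1 at −0.94 (SE 0.33, edgeR adjusted p = 0.225) and Eras at 0.68 (SE 0.27, edgeR adjusted p = 0.337), and called 74 of 8656 genes (0.855%). Depth was 42107 to 65256 with Foxa2 and 20145 to 57261 without.

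Cells with Sox2 held more Utf1 and Eras than cells without at E7.5. The 191 cells with Sox2, in 10 libraries, had Utf1 at 50.1 to 342 CPM, median 147, and the 220 cells without at 0 to 71.7, median 12.3. Utf1 was higher in 10 of 10 libraries (log2 2.77, SE 0.30, edgeR adjusted p = 1.07e-06). Eras ran from 35.2 to 85.9 CPM, median 50, with Sox2 and from 5.45 to 35.0, median 15.5, without. It was higher in 10 of 10 (log2 1.52, SE 0.21, edgeR adjusted p = 1.75e-05), and 4.63% of 6322 genes were called higher. Dppa5a stood at 9.43 ± 5.80 CPM with Sox2 and 3.78 ± 3.69 without, from 55 and 22 transcripts, and did not pass the filter. Cells without Sox2 were shallower, at library medians of 3775 to 56127 against 18395 to 57140. With sides set on thinned cells both differences kept their direction and lost the call, at log2 1.07 for Utf1 (adjusted p = 0.0504, in 18 alternatives from 5.32e-63) and 0.50 for Eras (adjusted p = 0.647, in 18 alternatives from 1.30e-11). Cells with few Sox2 transcripts can fall on the side without in that setting, so the part of depth was not tested by it.

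At E6.75 Utf1 was the 1 member called with Sox2. It had 615 ± 154 CPM in the 381 cells with Sox2 and 449 ± 178 in the 120 without, higher in 5 of 6 libraries (log2 0.46, SE 0.09, edgeR adjusted p = 0.0265), with 0.0541% of 9234 genes called higher. The call was lost without replicate 1_11 (log2 0.45, adjusted p = 0.0757), 2_12 (0.45, 0.117), 2_13 (0.41, 0.0548) or 2_14 (0.34, 0.136), with no library block (1.0) and without the deepest cells (0.142), in 15 alternatives from 2.47e-09 to 1.0. Eras had 64.3 ± 5.44 and 51.2 ± 15.8 CPM (log2 0.35, SE 0.15, edgeR adjusted p = 0.589). Dppa4 (log2 0.53, adjusted p = 0.452), Dppa2 (0.53, 0.855) and Dppa5a (−0.20, 0.846) did not pass, though Dppa4 did with no cells left out (0.79, adjusted p = 0.0178). The difference between stages was itself tested: the Sox2 contrast was larger at E7.5 by 2.26 for Utf1 (SE 0.33, edgeR adjusted p = 0.000134) and by 1.15 for Eras (SE 0.27, edgeR adjusted p = 0.0141), as were 1.4% of 7475 genes. Dppa5a did not pass this test (log2 1.45, adjusted p = 0.120) and Dppa2 did not reach it. With thinned sides neither call remained (Utf1 0.69, adjusted p = 0.293, and Eras 0.39, adjusted p = 0.803). Depth at E6.75 was 39307 to 62595 with Sox2 and 5378 to 39979 without.

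**Figure D4:**
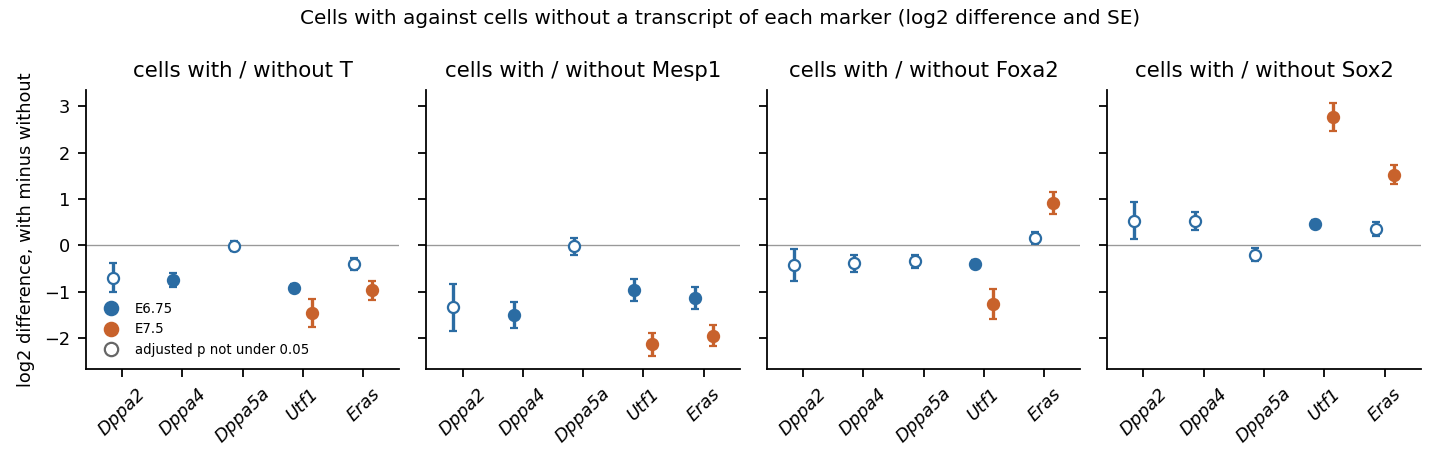
Log2 difference of each gene between cells with and cells without a transcript of T, Mesp1, Foxa2 or Sox2 (y axis, with minus without, edgeR estimate and SE), at E6.75 and E7.5, with filled points for an adjusted p under 0.05 and no point where a gene did not pass the filter on low counts. Utf1 lies below 0 with T, Mesp1 and Foxa2 and above 0 with Sox2, Dppa5a lies near 0 with T and Mesp1, and Eras at E7.5 lies at −1.94 with Mesp1 and at 0.91 with Foxa2.

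Among other genes of the pluripotency network, 29 of 36 listed were tested between stages, of which 18 were lower and 5 higher at E7.5, with a median log2 difference of −0.88 against 0.03 over all genes tested. Of all 9998 genes, 38.8% were called in either direction and 18.8% lower at E7.5, which is the background for this list and the next 3. The list was chosen with earlier results of these samples known. Its largest changes were the TGF-beta family ligand Gdf3 (log2 −2.97), the transcription factor Foxd3 (−2.92), the RNA-binding protein L1td1 (−2.27) and the POU factor Pou3f1 (−2.24), by edgeR. With T at E6.75, 9 of 28 were lower and 2 higher (median −0.17 against 0.00), so the list did not move as one. Of all 9747 genes, 324 were called with T at E6.75, 135 of them lower. Nanog (log2 1.1) and the Nodal co-receptor Tdgf1 (1.16) rose with T, and Fgf4 (−1.12) and the amino acid transporter Slc7a3 (−0.95) fell. At E7.5, 6 of 21 were lower with T and 0 higher, among them Sox2 (−1.41), Slc7a3 (−1.36), Otx2 (−1.07) and L1td1 (−0.88). Of all 6023 genes tested there, 0.714% were called lower. With Mesp1, 2 of 28 were lower and 2 higher at E6.75, and 11 of 22 lower and 1 higher at E7.5. Over all genes, 120 of 9776 were called with Mesp1 at E6.75, 22 of them lower, and 386 of 6138 at E7.5, 199 of them lower. With Foxa2, 1 of 27 was lower at E6.75, and 2 of 21 were higher at E7.5. The shares of all genes were 0.124% of 9679 called lower at E6.75 and 1.81% of 6458 called higher at E7.5. With Sox2, 1 of 25 was higher at E6.75, and 14 of 21 higher and 1 lower at E7.5 (median 0.71 against 0.00). The shares of all genes called higher with Sox2 were 0.0541% of 9234 at E6.75 and 4.63% of 6322 at E7.5.

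For the stage counts of the next 3 lists, 38.8% of all 9998 genes were called in either direction and 18.8% lower. The Ras family and PI3K-AKT genes, the setting in which Eras acts, moved little: of 17 tested between stages, 3 were lower and 1 higher (median −0.10). Among them were the PI3K catalytic subunit Pik3cd (log2 −1.71) and the PI3K regulatory subunit Pik3r1 (0.63), by edgeR. With Sox2 at E7.5, 2 of 12 tested were higher, among them the Ras-family GTPase Rras (log2 1.04), against 4.63% of all 6322 genes. Of 24 germline genes, a group that includes known targets of Dppa2 and Dppa4, 7 were abundant enough to test between stages. Of these, 5 were lower and 1 higher (median −1.55), with Rpl10l (−4.69), Tex19.1 (−2.43), Sycp1 (−1.67) and Ddx4 (−1.55) the largest. With T at E6.75, 1 of 8, Tex15 (0.92), was higher, where 324 of all 9747 genes were called in either direction. Of 14 polycomb and bivalent chromatin genes, 9 of 13 tested were lower at E7.5 and 0 higher (median −0.38), among them Jarid2 (−0.74), which is also in the pluripotency list, Smarca4 (−0.59) and Kmt2b (−0.47).

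Likeness was measured as Pearson's r over 12 means, of 6 classes at 2 stages, of log2(CPM + 1), for 9998 genes. Utf1 was most like Slc25a33 (r = 0.983), Tfe3 (0.981) and Slc7a3 (0.980). Eras was most like Lima1 (0.978), Uchl1 (0.973) and Cldn6 (0.971). Among the genes most like Dppa5a were Ccdc88c (0.978) and Cdk11b (0.977). Dppa4 was most like Gnl2 (0.966), Ola1 (0.960) and Glrx (0.958), and Dppa2 was most like Mlf2 (0.945), Upf3b (0.937) and Plekha1 (0.931). Among the members, Dppa2 and Dppa4 had r = 0.915, Dppa4 and Dppa5a 0.911 and Dppa5a and Utf1 0.906, while Eras had 0.525 to 0.760 with the others. These 12 means share libraries and the stage difference, so they are a description of pattern only.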

How the data were processed

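Single cells of mouse embryos were measured by CEL-Seq2 at E6.75 (6 libraries) and by mCEL-Seq2 at E7.5 (12 libraries), each a library of 96 cells per the labels. The deposited values are expected counts of transcripts per gene and barcode: with K = 4096 UMI sequences, each nonzero value is −K ln(1 − k/K) of some whole k (largest deviation 4.73e-11), so the authors had corrected observed UMI counts for collisions and applied no depth scaling. bcl2fastq 2.17.1.14 and BWA 0.6.2-r126 are listed in the submitters' processing notes, while genome build, annotation, counting program and strand use are not given in the sources used here. The 5 genes, the comparisons and the gene lists were chosen with earlier results of these data known. The named genes are the 5 members, at most 4 genes past the threshold with the largest change per list and comparison, and the 3 genes most like each member. Some genes that this rule names are not reported here.

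The 96 used of 192 barcode columns held 96.7% to 99.97% of a library's transcripts, and cells with at least 2000 nuclear transcripts were kept. Levels are transcripts per 1000000 nuclear transcripts (CPM) summed over the cells of a library, class or side. Expected counts were rounded for tests. Cells with a visceral endoderm marker sum of at least 2000 CPM or an extraembryonic ectoderm sum of at least 1000 CPM were left out of the 8 comparisons of cells with and without a marker, and no doublet caller was run. Sums of libraries with at least 3 cells per side were compared with edgeR 4.0.16 (R 4.3.3; TMM, filterByExpr, quasi-likelihood F test, library as block, Benjamini-Hochberg at 0.05 over all genes tested), and the change between stages as the interaction of side and stage. Standard errors are the log2 difference divided by the root of F. The pairing comes from the library, which both sides share. On simulated counts of the T comparison, 100% of genes changed by 2 on the log2 scale were called at both stages, 66.0% and 76.0% of those changed by −1 and 1 at E6.75 (9747 genes), and 0.117% of unchanged genes. Alternatives were DESeq2 1.42.0, no filter, no block, observed UMIs, thinned sides, no cells left out, at least 5000 transcripts, each library left out, and, added after seeing the data, cells above 3 times the median depth left out. Intervals and floors of 3 counts cover counting error only.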

Additional observations from a re-analysis of the deposited data

Results flagged for a closer look

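In 7 of 55 sets of 4 to 10 libraries, the highest library stood apart from the rest by a rule on gaps. That rule flags about 1 in 20 sets of independent, normally distributed values. These sets share cells and libraries, and many hold few counts, so the rate does not apply and no excess is read. In cells without Sox2, Dppa2 was at 19.12 CPM in E6.75 replicate 2_9 (next 6.58) and at 9.47 in E7.5 replicate 4 (next 1.30), and Dppa5a was at 12.6 in E7.5 replicate 4 (next 5.66). Dppa4 at E7.5 was at 22.4 CPM with Sox2 in replicate 10 (next 11.9), at 32.6 without Sox2 in replicate 12 (next 3.89), at 24.0 without Foxa2 in replicate 12 (next 4.59) and at 5.22 with Foxa2 in replicate 2 (next 2.36). The Dppa4 values of replicates 10 and 12 rest largely on the few cells described above.

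The Sox2 difference was larger at E7.5 than at E6.75 by 2.26 on the log2 scale for Utf1 and by 1.15 for Eras, both past the test of the interaction (edgeR adjusted p = 0.000134 and 0.0141), and neither was called with thinned sides.

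Barcode columns that no cell of a library used held some transcripts. In E6.75 replicate 2_13 they held 29.0 of Utf1 and 7.0 of Dppa5a among 58551 nuclear transcripts, and in replicate 2_14 they held 5.0 of Utf1. The used columns of replicate 2_13 held 2438 of Utf1.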

How the results depend on the processing

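Of 15 single-gene results called in the 8 comparisons, all 241 alternatives kept the direction and 198 kept the call. These counts include the fits of prefix 2 libraries for Mesp1 at E6.75, which repeat the main fit. Settings that changed the call of a single gene are named beside its result above. Genes called moved as follows. For T at E6.75 the count of 324 became 167 with DESeq2, 508 with no filter and 109 with no replicate block (181 to 356 with each library left out), and for T at E7.5 the count of 130 became 362 with no filter and 69 with no replicate block (85 to 149). For Mesp1 at E6.75, 120 became 46 with DESeq2, 267 with no filter, 37 with no replicate block and 491 with thinned sides (89 to 177), and at E7.5, 386 became 618 with DESeq2, 925 with no filter and 96 with thinned sides (309 to 441). For Foxa2 at E6.75, 32 became 13 with DESeq2, 89 with no filter, 1 with no replicate block, 101 with thinned sides and 442 with no cells left out (11 to 41), and at E7.5, 161 became 675 with no filter and 50 with no replicate block (90 to 177). For Sox2 at E6.75, 22 became 44 with DESeq2, 60 with no filter, 1 with no replicate block, 51 with thinned sides, 343 with no cells left out, 6 in cells of at least 5000 transcripts and 4 without the deepest cells (7 to 38), and at E7.5, 556 became 896 with no filter, 359 with no replicate block and 27 with thinned sides (392 to 558). With thinned sides the interactions of Foxa2 and Sox2 called 46 and 10 in place of 74 and 164, and cells thinned to 2000 transcripts gave 629 in place of 3879 between stages (3403 to 3920 with each library left out).

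Members called were 2 for T at E6.75 (1 with no replicate block, 4 with thinned sides, 2 to 3 with each library left out), 2 for T at E7.5 (1 with DESeq2, with no replicate block and with thinned sides), 3 for Mesp1 at E6.75 (0 with DESeq2, 1 with no replicate block and with no cells left out, 1 to 3 with each library left out) and 2 at E7.5 (1 to 2). They were 1 for Foxa2 at E6.75 (0 with DESeq2 and no replicate block, 2 with thinned sides, 0 to 1) and 2 at E7.5 (1 with DESeq2, 0 with no replicate block and thinned sides, 0 to 2). They were 1 for Sox2 at E6.75 (0 with no replicate block and without the deepest cells, 2 with no cells left out, 0 to 1), 2 at E7.5 and 2 for its interaction (both 0 with thinned sides). Where DESeq2 called 0, no member passed by that tool. The cause of these moves was not tested, apart from fewer or more genes tested where the filter changed.

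Signs changed for values that were not called. Dppa5a with T at E6.75 became 0.019 in libraries of prefix 2, 0.035 with thinned sides and 0.016 without replicate 1_10 (−0.069 to 0.016 with each library left out), with Mesp1 at E6.75 0.17 without replicate 2_14 (−0.21 to 0.17), and with Sox2 at E6.75 0.046 with thinned sides. Dppa2 with Sox2 at E6.75 became −0.059 in libraries of prefix 2. With thinned sides the interactions became 0.80 (Utf1, T), 0.015 (Eras, T) and −0.17 (Dppa5a, Sox2).

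Shares of cells rise with depth. Thinned to 1000, 4000 and 10000 transcripts and unthinned, those at E6.75 were 39.4%, 76.8%, 91.0% and 96.5% for Utf1, 6.13%, 22.0%, 43.1% and 73.3% for Dppa5a and 5.93%, 20.2%, 41.4% and 67.0% for Eras. From 4000 on, they were 12.2%, 26.3% and 45.9% for Dppa4 and 4.37%, 10.7% and 22.6% for Dppa2. At E7.5, from 4000 on, they were 21.9%, 33.9% and 41.9% for Utf1, 3.01%, 7.51% and 18.6% for Dppa5a and 13.1%, 25.5% and 37.5% for Eras. At 10000 and unthinned, they were 2.33% and 3.48% for Dppa4 and 0.883% and 1.52% for Dppa2.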
